A study of Mus musculus with 6 samples.

Results

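NF-κB subunit genes and the genes of their feedback inhibitors were described from H3K27ac ChIPseq of A9 cells that received DMSO, curcuphenol or IFN-γ. The 10 genes were chosen by name, from 26180 mouse genes with a curated transcript. They are the 5 subunit genes Nfkb1, Nfkb2, Rela, Relb and Rel, and 5 genes of inhibitors, Nfkbia, Nfkbib, Nfkbie, Nfkbiz and Tnfaip3. For each gene, the called regions at the promoter, the base pairs (bp) of the gene body and the 1 kb upstream that regions cover, and the regions in the flanks out to 50 kb were taken. Within this territory lay 85 of 47899 regions called under DMSO, 72 of 48763 called under curcuphenol and 98 of 55622 called under IFN-γ. Regions that overlap across the lists by at least 1 bp were merged, and 110 of 70818 merged regions belonged to the 10 genes.

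A9 is a metastatic clone of the mouse lung line TC1, whose cells are transformed, so the data describe 1 line and no tissue. Cells were cultured for 48 h with 1% DMSO, the vehicle, with curcuphenol (0.00167 μmol), a sesquiterpene phenol from plants and sponges, or with IFN-γ (5.83 fmol), and 130000 live cells were taken per treatment. For each there is 1 library of H3K27ac and 1 of input, 6 libraries in all, so there is no replicate error and no test between treatments, and each ratio compares a pair of libraries. H3K27ac marks active promoters and enhancers. The lists hold positions of regions only, without read counts, so a longer region is not a measure of more acetylation, and the read depth is unknown. Covered sequence came to 69.8 Mb under DMSO, 70.3 Mb under curcuphenol and 81.1 Mb under IFN-γ, 1.16 times the DMSO total (0.22 on the log2 scale). Both treatments were compared with the same DMSO list. Among markers of cell types, a promoter region was called at 8 of 10 mesenchymal genes under DMSO and at 7 of 10 with either treatment. The same count was 1, 0 and 1 of 10 epithelial genes under DMSO, curcuphenol and IFN-γ, 1 of 10 leukocyte genes in every list and 0 of 6 endothelial genes. Of the epithelial markers, 8 of 10, among them Epcam, Nkx2-1 and Sftpc, had no covered bp in any list. The other 2 were Cdh1, with 4437, 5711 and 7679 bp under DMSO, curcuphenol and IFN-γ, and Krt8, with 487, 0 and 501 bp. Covered bp were absent from every list at 6 of 10 leukocyte and 2 of 6 endothelial genes. The remaining genes of both lists held covered bp in 1 list or more.

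NF-κB is a family of dimeric transcription factors that act in inflammation, survival and innate immunity. The products of Rela, Relb and Rel carry transactivation domains, that of Relb serves the non-canonical pathway, and Nfkb1 and Nfkb2 encode precursors that are processed to DNA-binding subunits. IκB proteins hold the dimers in the cytoplasm until IκB kinases mark them for degradation, and several of the inhibitor genes are themselves NF-κB targets, which makes a negative feedback loop.

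The promoter sequences of 5 members are shown first because they hold matches to the κB consensus, the 10-base element that NF-κB dimers bind, and that of Nfkbib because it holds none. RefSeq promoter windows (GRCm38.p6, the assembly named mm10) run from 250 bases before the start to 50 after it, 300 bases in all, and were found for 7 of the 10 genes: Nfkb2, Rela, Rel, Nfkbia, Nfkbib, Nfkbie and Tnfaip3. Each is written in the direction of the gene, with matches to the consensus, on either strand, in capitals. The windows lie at chr19:46304487-46304786 (plus strand, Nfkb2), chr11:23770920-23771219 (minus, Rel), chr12:55492598-55492897 (minus, Nfkbia), chr17:45555450-45555749 (plus, Nfkbie), chr10:19015361-19015660 (minus, Tnfaip3) and chr7:28766595-28766894 (minus, Nfkbib).
Nfkb2: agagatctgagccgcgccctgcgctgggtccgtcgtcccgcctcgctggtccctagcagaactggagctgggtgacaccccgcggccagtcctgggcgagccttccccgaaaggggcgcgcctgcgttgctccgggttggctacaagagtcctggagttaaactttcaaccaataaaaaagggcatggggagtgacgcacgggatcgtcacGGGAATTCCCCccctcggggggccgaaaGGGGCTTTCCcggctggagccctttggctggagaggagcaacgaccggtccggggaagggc
Rel: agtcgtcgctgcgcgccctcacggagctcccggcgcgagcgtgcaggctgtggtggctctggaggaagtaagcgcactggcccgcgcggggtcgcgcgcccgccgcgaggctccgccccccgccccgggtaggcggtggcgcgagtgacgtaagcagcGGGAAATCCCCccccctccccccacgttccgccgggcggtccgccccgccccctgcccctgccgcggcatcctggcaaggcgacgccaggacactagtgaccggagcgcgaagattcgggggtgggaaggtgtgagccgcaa
Nfkbia: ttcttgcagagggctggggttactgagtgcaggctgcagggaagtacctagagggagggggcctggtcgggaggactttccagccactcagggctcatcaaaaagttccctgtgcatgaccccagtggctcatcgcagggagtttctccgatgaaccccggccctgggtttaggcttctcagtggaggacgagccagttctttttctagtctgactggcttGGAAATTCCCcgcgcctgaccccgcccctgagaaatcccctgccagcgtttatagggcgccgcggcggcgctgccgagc
Nfkbie: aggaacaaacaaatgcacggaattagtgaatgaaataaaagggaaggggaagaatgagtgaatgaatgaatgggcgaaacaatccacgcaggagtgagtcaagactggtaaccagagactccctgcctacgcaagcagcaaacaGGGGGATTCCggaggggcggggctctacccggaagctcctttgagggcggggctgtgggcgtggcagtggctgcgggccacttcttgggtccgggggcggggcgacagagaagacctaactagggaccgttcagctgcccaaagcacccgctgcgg
Tnfaip3: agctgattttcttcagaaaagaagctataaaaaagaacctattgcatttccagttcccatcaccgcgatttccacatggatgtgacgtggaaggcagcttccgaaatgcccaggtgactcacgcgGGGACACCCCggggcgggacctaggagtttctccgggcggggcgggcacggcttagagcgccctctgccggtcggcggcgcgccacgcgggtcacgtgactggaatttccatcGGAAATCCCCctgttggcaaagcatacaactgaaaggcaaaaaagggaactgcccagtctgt
Nfkbib: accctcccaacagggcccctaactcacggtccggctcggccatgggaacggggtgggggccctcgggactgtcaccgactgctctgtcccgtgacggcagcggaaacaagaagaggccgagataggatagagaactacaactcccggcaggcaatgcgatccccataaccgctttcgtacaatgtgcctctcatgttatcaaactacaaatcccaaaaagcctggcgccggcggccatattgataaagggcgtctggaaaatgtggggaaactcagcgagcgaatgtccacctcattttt

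A κB match was held by 7 of 10 windows, since Nfkb2 has 3 and Tnfaip3 has 2, against 4.51% of all 32851 RefSeq promoter windows. By gene, 5 of 7 members had a match and Rela and Nfkbib had none. Counted from the annotated start as position 0, matches began at -39, -38 and -11 in the Nfkb2 window shown, at -92 and -91 in Rel, at -29 in Nfkbia, at -106 in Nfkbie, and at -125 and -12 in Tnfaip3. Starts 1 base apart are overlapping matches. All 12 starts, counted window by window with 1 of them in a pair of overlapping Nfkb2 windows, lay inside a called region under DMSO, under curcuphenol and under IFN-γ. The letters TTCNNNGAA, a core of STAT elements, were in 1 member window (the Nfkb2 window shown, 8.3% of all windows). The letters GAAANNGAA, part of interferon response elements, were in the Nfkbia window alone (8.56% of all), and TGANTCA, the AP-1 element, was in a second window of Nfkb2, in Nfkbie and in Tnfaip3 (7.81% of all). Both strands were searched for each motif, and a match is a stretch of letters, not a measured binding site.

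All 10 genes had a region at a promoter in every list, where a promoter is the 1000 bp before a start and the 100 bp after it, and 42.1% of all genes did. Over the gene body and 1 kb upstream, IFN-γ covered more bp than DMSO at 8 of 10 members (60.2% of the genes with a promoter region in all 3 lists), or at 5 of 10 once each list was scaled to its own total: Relb, Nfkbib and Tnfaip3 then had fewer. Curcuphenol covered fewer bp than DMSO at 9 of 10, all but Nfkbib (56.0% of the same genes), also after scaling. Both shares are of unscaled bp, and no share over genes was taken after scaling. Under IFN-γ, 0 members passed 1.5 times more bp than under DMSO (21.2% of 14826 genes with a region in either list) and 0 passed 1.5 times fewer (9.31%). Under curcuphenol, Nfkbie and Tnfaip3 passed 1.5 times fewer bp (21.2% of 15275 genes), a count of 2 of 10 near that share, and 0 passed 1.5 times more (22.1%).

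Since all members had a promoter region in every list, the same shares were also taken over the 11022 genes with a promoter region in all 3 lists, a background chosen after the values were seen. Among those, 13.6% passed 1.5 times more bp and 6.24% passed 1.5 times fewer under IFN-γ. The median log2 ratio of IFN-γ to DMSO was 0.27 over the members and 0.09 over these genes. Under curcuphenol, 13.1% passed 1.5 times more and 17.1% passed 1.5 times fewer. The median log2 ratio of curcuphenol to DMSO was -0.46 over the members and -0.07 over these genes. IFN-γ covered more bp than curcuphenol at 10 of 10 members (63.7% of these genes), or 8 after scaling. At 4 of 10 (Nfkb2, Nfkbie, Nfkbiz and Tnfaip3) it passed 1.5 times more, against 21.0% of these genes and 26.3% of 15490 genes with a region in either list. After scaling to list totals 3 passed, without Nfkb2 (1.42 times), and with 2000 or 5000 bp upstream counted 6 passed, Rela and Relb included. No share over all genes was taken for the scaled counts or for these other lengths upstream.

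**Figure D1:**
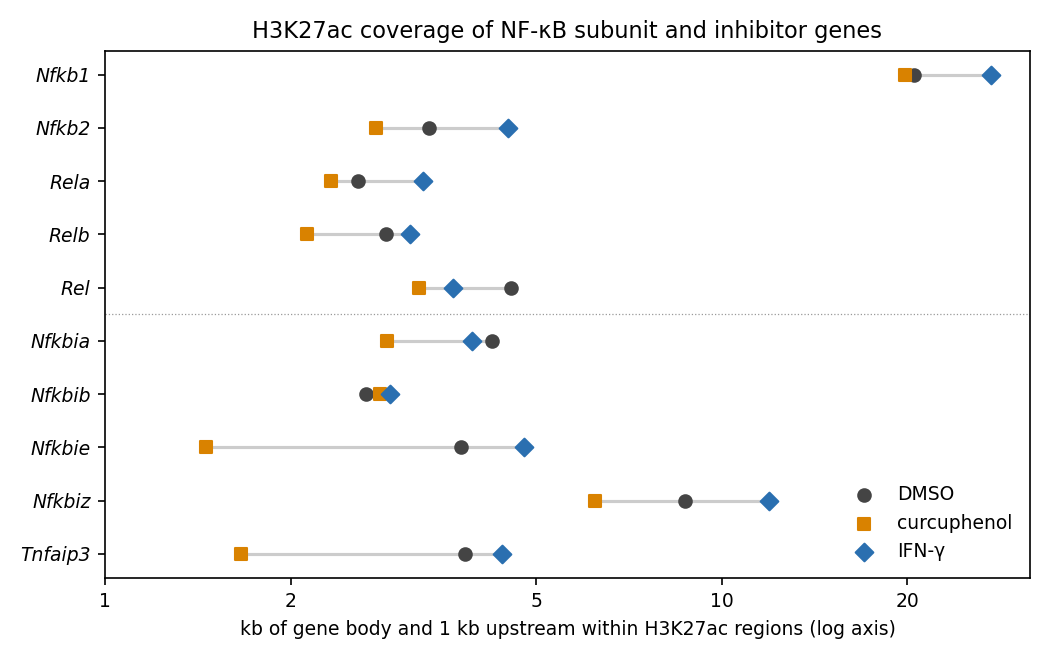
Covered kb of gene body and 1 kb upstream (log axis) for each member, with 1 point per list (circle DMSO, square curcuphenol, diamond IFN-γ) and no error bars, since each treatment has 1 library. The curcuphenol point is the lowest of the 3 at every gene but Nfkbib, and the IFN-γ point is the highest at all but Rel and Nfkbia, with Relb, Nfkbib and Tnfaip3 below DMSO once lists are scaled to their totals.

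Among the subunits, Nfkb1 was the longest gene and carried the most marked sequence. It lies at chr3:135584655-135691547 on the minus strand. Regions covered 20510 bp under DMSO, 19821 bp under curcuphenol and 27284 bp under IFN-γ, which is 1.33 times the DMSO value under IFN-γ and 0.966 times under curcuphenol. DMSO and curcuphenol were close in sum, but the regions that made up the sum differed. The gene held 15 merged regions, of which 6 were in all 3 lists. A large intronic region, 14169 to 23696 bp downstream of the start, had 7528 called bp under DMSO, 3781 bp under curcuphenol and 9017 bp under IFN-γ. Deeper in the gene, 82885 to 87918 bp from the start, an intronic region had 1293 bp under DMSO, 4794 bp under curcuphenol and 2872 bp under IFN-γ. The former was shortest under curcuphenol and the latter longest. A region of 2314 bp near the 3′ end, in an intron 104035 to 106348 bp from the start, was called under curcuphenol alone. IFN-γ alone had 5 intronic regions, the longest of 1558 bp at 88305 to 89862 bp from the start and the other 4 between 273 and 493 bp long. At the promoter, the region ran 3334 bp into the gene under DMSO, 1345 bp under curcuphenol and 3446 bp under IFN-γ. Under curcuphenol a further region followed across a short gap, and joined over gaps of up to 500 bp it reached 3463 bp.

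Nfkb2, at chr19:46304737-46312090 on the plus strand, had 3348 bp covered under DMSO, 2748 bp under curcuphenol and 4501 bp under IFN-γ. The IFN-γ value was 1.34 times the DMSO value and 1.64 times the curcuphenol value. Its 3 curated starts sat in 1 region in every list, of 2920 bp under DMSO, 2794 bp under curcuphenol and 3917 bp under IFN-γ, and that region also holds the promoter of 4833438C02Rik. A second region, 3749 to 4736 bp from the start and centred on an exon, had 559 bp under DMSO and 915 bp under IFN-γ and no call under curcuphenol. The difference at Nfkb2 thus lay in both the promoter region and the region inside the gene.

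Rela encodes the main transactivating subunit of canonical NF-κB and lies at chr19:5637541-5648134 on the plus strand. It had 2575 bp covered under DMSO, 2321 bp under curcuphenol and 3281 bp under IFN-γ, a ratio of 1.27 under IFN-γ and 0.901 under curcuphenol. The promoter region was 2325 bp under DMSO and 2321 bp under curcuphenol, and 3080 bp under IFN-γ. The added length of this region lay mostly upstream, where it reached 902, 908 and 1536 bp from the start under DMSO, curcuphenol and IFN-γ. The part beyond the counted 1 kb does not enter the ratio. Inside the gene, an intronic region of 728 bp, 5731 to 6458 bp from the start, was called under IFN-γ alone. Another of 224 bp, 7223 to 7446 bp from the start, was called under DMSO alone. A region across the 3′ end, 10568 to 12124 bp from the start, was called over 1557 bp under DMSO and 1445 bp under IFN-γ but not under curcuphenol. Most of it lay beyond the gene and outside the counted bp.

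Relb, at chr7:19606222-19629438 on the minus strand, had 1 region over the gene, at its promoter. Covered bp were 2856 under DMSO, 2122 under curcuphenol and 3118 under IFN-γ, ratios of 1.09 under IFN-γ and 0.743 under curcuphenol. Upstream of the start the region reached 1030 bp under DMSO, 641 bp under curcuphenol and 1662 bp under IFN-γ, so a part of the IFN-γ region fell outside the counted 1 kb. With 2000 bp upstream counted, the ratio of IFN-γ to curcuphenol was 1.78 in place of 1.47.

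Rel encodes c-Rel, a subunit best known from lymphocytes, and lies at chr11:23736847-23770969 on the minus strand. It was the subunit gene with fewer bp under both treatments: 4552 bp under DMSO, 3226 bp under curcuphenol and 3666 bp under IFN-γ, ratios of 0.709 and 0.805. The promoter region varied little in length, at 2563, 2176 and 2380 bp in the same order. An intronic region 24019 to 25315 bp from the start had 1297 called bp under DMSO, 741 bp under curcuphenol and 633 bp in 2 pieces under IFN-γ. When regions shorter than 500 bp were left out, the ratio of IFN-γ to DMSO was 0.593, past the fold of 1.5. With gaps of up to 500 bp joined instead, it was 0.941. Rel had no region in its flanks in any list.

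The inhibitors showed the lowest ratios of curcuphenol to DMSO. The median log2 ratio of curcuphenol to DMSO was -0.56 over the 5 inhibitor genes and -0.28 over the 5 subunit genes, with ratios from 0.385 to 1.05 in the former and from 0.709 to 0.966 in the latter. The ranges overlap. Under IFN-γ the medians were 0.20 and 0.35.

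Nfkbia encodes IκBα, the inhibitor resynthesised soon after NF-κB activation. The gene is short (chr12:55489409-55492647, minus strand), and under DMSO 1 region covered all of the 4239 bp counted. Curcuphenol covered 2867 bp (67.6%) and IFN-γ 3930 bp (92.7%). The DMSO value is the highest that this measure can take, so no increase over DMSO could be seen within the gene. The DMSO region ran from 1049 bp upstream to 4542 bp downstream of the start, past the 3′ end. Under curcuphenol the span held 3 separate regions of 4053 bp in all. Under IFN-γ it held 2 regions of 7642 bp in all that reached 6804 bp downstream. The first break came 484 bp downstream of the start under both treatments. The κB match at -29 stayed inside the region in every list.

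Downstream of Nfkbia, IFN-γ had the longest regions. Within 50 kb, called bp outside the gene and its 1 kb upstream came to 10199 under DMSO, 7261 under curcuphenol and 17258 under IFN-γ, 1.69 times the DMSO value. A region 23805 to 31475 bp downstream of the start, at no promoter, was 1 unbroken call of 7671 bp under IFN-γ. The same span held 3 calls of 5215 bp in all under DMSO and 1 call of 4031 bp under curcuphenol. A nearer region, 17080 to 19881 bp from the start, had 1543, 1006 and 2802 bp under DMSO, curcuphenol and IFN-γ. Further regions, 45043 to 46203 bp and 48744 to 49974 bp from the start, were called under DMSO and IFN-γ and not under curcuphenol. In each of these regions the order was IFN-γ, DMSO, curcuphenol. None of the 5 flanking regions of Nfkbia was gained under IFN-γ, so the difference in them was in length. The totals within 50 kb also include the parts of the gene's own regions that lie beyond the counted bp, mostly past its 3′ end.

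Nfkbib encodes IκBβ, an inhibitor with slower turnover. At chr7:28758251-28766644 (minus strand) it was the member with the smallest differences in bp between lists: 2653 bp under DMSO, 2788 bp under curcuphenol and 2895 bp under IFN-γ, ratios of 1.05 and 1.09. All of these bp lay in 1 region at the start, which is shared with the divergent gene Sirt2. Its promoter window, shown above, has no match to any of the 4 motifs.

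Nfkbie encodes IκBε and lies at chr17:45555700-45563169 on the plus strand. Of the members it had the largest ratio of IFN-γ to curcuphenol: 3780 bp under DMSO, 1456 bp under curcuphenol and 4776 bp under IFN-γ. The curcuphenol value was 0.385 times that of DMSO, and IFN-γ was 1.26 times DMSO and 3.28 times curcuphenol. All of the difference came from 1 region at the promoter. Its upstream edge was 821 bp from the start under DMSO and under curcuphenol, and 1080 bp under IFN-γ. Its downstream edge was 2958 bp into the gene under DMSO, 634 bp under curcuphenol and 3775 bp under IFN-γ. Joining regions across gaps of up to 500 bp left these lengths as they were, so no further call followed within that distance. The κB match at -106 lay in the part that all lists share.

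Nfkbiz encodes IκBζ, a nuclear IκB protein induced by IL-1 and Toll-like receptor ligands that acts as a co-regulator of secondary response genes. It lies at chr16:55811377-55838641 on the minus strand and has 2 curated starts. Covered bp were 8715 under DMSO, 6224 under curcuphenol and 11917 under IFN-γ, ratios of 0.714 and 1.37, and the IFN-γ value was 1.92 times the curcuphenol value. At the upstream start the region was 1334, 1098 and 1318 bp long under DMSO, curcuphenol and IFN-γ. At the downstream start it was 4686, 4746 and 7804 bp, so that curcuphenol and DMSO were alike there and IFN-γ was longer. The lower curcuphenol value came mostly from several regions further 3′. The merged region at the downstream start, 15157 to 22960 bp from the upstream start, held 2 calls of 5833 bp in all under DMSO. Under curcuphenol it held 1 call of 4746 bp. A region 23361 to 24770 bp from the upstream start had 239 bp under DMSO, 1410 bp under IFN-γ and no call under curcuphenol. Going the other way, a region of 380 bp, 10786 to 11165 bp from it, was called under curcuphenol alone. A stretch 25130 to 32790 bp from the upstream start, across the 3′ end of the gene, was called over 6260 bp in 1 region under DMSO, over 5402 bp in 5 regions under IFN-γ and not at all under curcuphenol. Most of this stretch lay beyond the gene and outside the counted bp.

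Tnfaip3 encodes A20, a ubiquitin-editing enzyme that restrains NF-κB signalling at the TNF receptor complex. At chr10:19000910-19015410 (minus strand) it had 3832 bp under DMSO, 1658 bp under curcuphenol and 4401 bp under IFN-γ. Curcuphenol gave 0.433 times the DMSO value, and IFN-γ gave 1.15 times DMSO and 2.65 times curcuphenol. At the upstream start, the region reached 1601 bp into the gene under DMSO, 657 bp under curcuphenol and 1203 bp under IFN-γ, while its upstream edges lay within 1008 to 1197 bp of the start. An intronic region 5931 to 7555 bp from the start had 864 bp under DMSO, 1517 bp under IFN-γ and no call under curcuphenol. The second curated start had a region of 680 bp under IFN-γ alone. Curcuphenol thus left 1 region in the gene, and both κB matches of the first start lay within it.

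**Figure D2:**
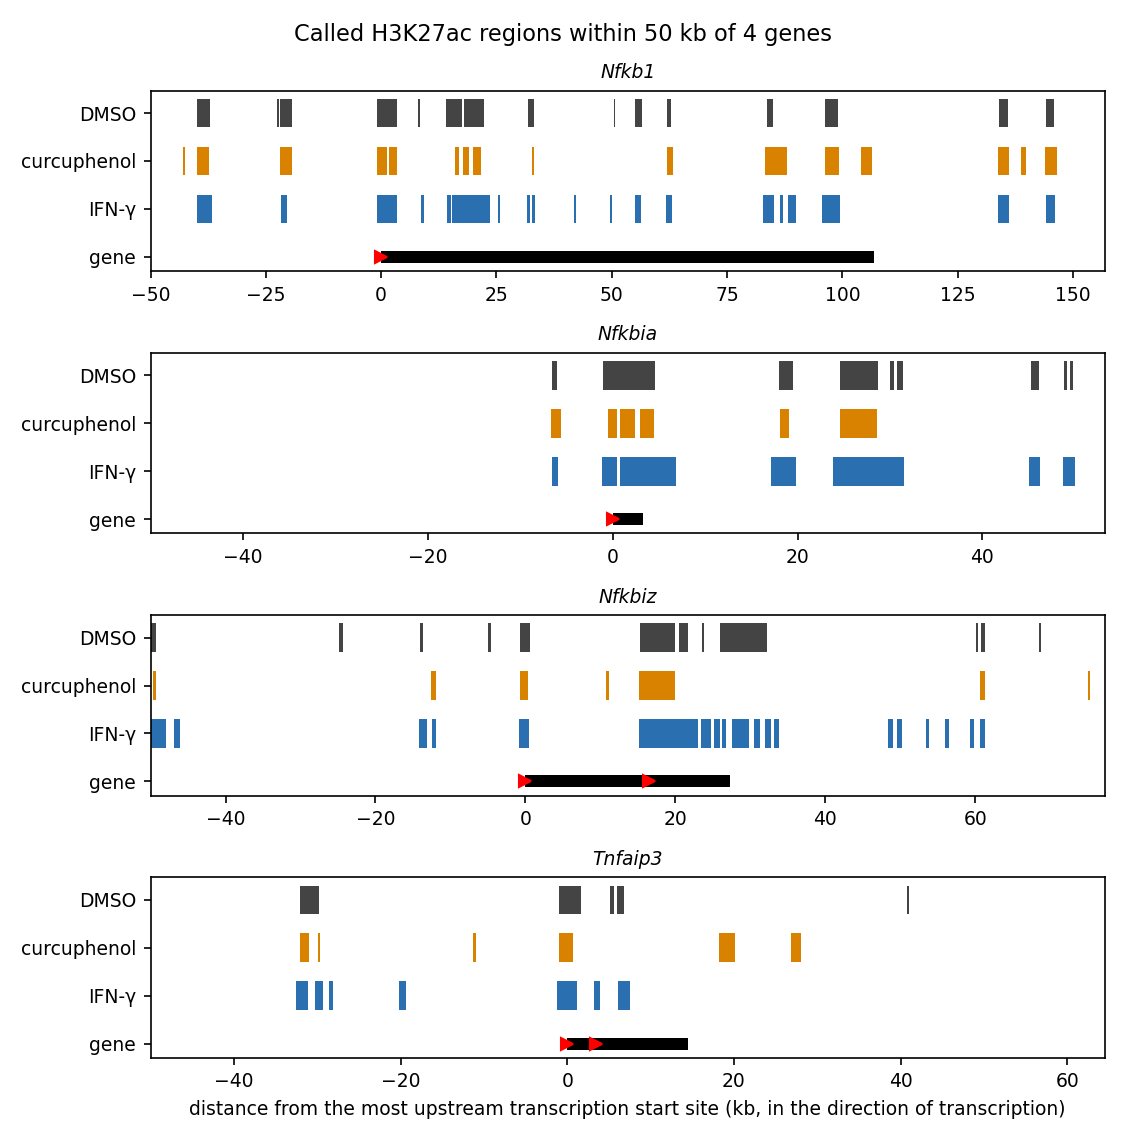
Called H3K27ac regions at Nfkb1, Nfkbia, Nfkbiz and Tnfaip3 in 3 lists, by distance in kb from the most upstream start in the direction of transcription, out to 50 kb on either side of the gene (black bar, arrowheads at the curated starts). The IFN-γ call of 7671 bp downstream of Nfkbia, the missing curcuphenol calls across the 3′ end of Nfkbiz and the 2 curcuphenol calls downstream of Tnfaip3 are visible.

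At several members the shorter curcuphenol regions ended nearer to the start on the side of the gene body. The extent of the region that holds the most upstream start was therefore measured to either side, a measure chosen after the values were seen, over 8513 genes whose start lay in a region of all 3 lists. Downstream of the start, the region was at least 1.5 times shorter under curcuphenol than under DMSO at 5 of 10 members (Nfkb1, Nfkbia, Nfkbie, Nfkbiz and Tnfaip3), against 23.4% of these genes. Upstream it was so at 2 of 10 (Relb and Nfkbia), against 20.7%. At Nfkbiz the downstream lengths were short in all lists, at 561 bp under DMSO, 339 bp under curcuphenol and 488 bp under IFN-γ. From its second start the region ran 3468 bp downstream under DMSO and 3440 bp under curcuphenol. Nfkbia ended 484 bp downstream under IFN-γ as under curcuphenol. It was the 1 member of 10 at least 1.5 times shorter downstream under IFN-γ than under DMSO, against 12.3% of these genes. The median difference, curcuphenol minus DMSO, was -364 bp downstream and -31 bp upstream over the members, and -131 and -44 bp over these genes. With gaps of up to 500 bp joined, the downstream count was 4 of 10, without Nfkb1, against 23.9%. Of the 4, Nfkbia then ran 4542 bp downstream under DMSO, 2381 bp under curcuphenol and 6804 bp under IFN-γ.

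**Figure D3:**
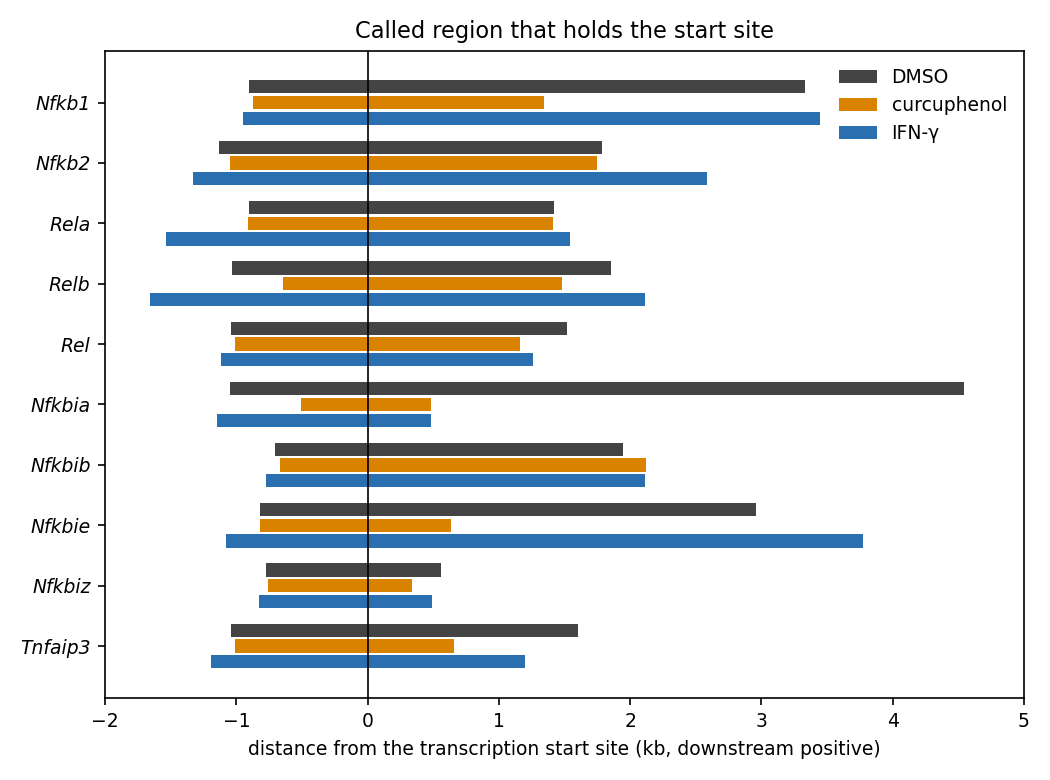
Extent of the called region that holds the most upstream start of each member, in kb upstream (negative) and downstream of the start, with 1 bar per list and no error bars. The downstream end of the curcuphenol bar lies well inside the DMSO bar at Nfkb1, Nfkbia, Nfkbie and Tnfaip3, and its upstream end is at least 1.5 times nearer to the start than that of DMSO at Relb and Nfkbia.

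Over the gene bodies and the 1 kb upstream, the members held 40 merged regions, of which 12 lay at their promoters and 29 were centred in an intron. In all 3 lists were 17 of the 40 (42.5%, exact Clopper-Pearson 95% interval 27.04 to 59.1), against 39.0% of all merged regions. Regions under DMSO and not curcuphenol were 12 (30%, 16.6 to 46.5, against 20.2%), and those under curcuphenol and not DMSO were 3 (7.5%, 1.57 to 20.4, against 23.2%). Regions under IFN-γ and not DMSO were 8 (20%, 9.05 to 35.6, against 20.9%) and those under DMSO and not IFN-γ were 5 (12.5%, 4.19 to 26.8, against 11.5%). The shares for IFN-γ were close to those of all merged regions. Curcuphenol without DMSO was the class in which the interval lay wholly below the share over all merged regions. That share is not matched for promoters. Of all 70818 merged regions, 11545 lay at a promoter, against 12 of the 40 here at the members' own. Of all regions under curcuphenol and not DMSO, 97.1% lay at no promoter. Whether the lower share goes beyond this mix was not tested. Nfkb1 alone held 15 of the 40. Intervals cover counting error only, and regions of 1 gene share a locus. Both treatments without DMSO, and DMSO plus curcuphenol but without IFN-γ, had 0 of 40, which allows a share of up to 8.81% (the upper bound of the exact interval). Over all merged regions these classes made up 4.93% and 1.64%, both within that limit.

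The flanks held 70 merged regions, 32 of them in all 3 lists (45.7%, 33.7 to 58.1). Here 16 were found under IFN-γ and not DMSO (22.9%, 13.7 to 34.4), 8 under DMSO and not IFN-γ (11.4%, 5.07 to 21.3), 11 under curcuphenol and not DMSO (15.7%, 8.11 to 26.4) and 15 under DMSO and not curcuphenol (21.4%, 12.5 to 32.9). Each interval held the share over all merged regions given above. Of the 70, 20 lay at the promoter of another gene and 50 at none. Regions in all 3 lists made up 17 of the 20, against 85.9% of all merged regions at a promoter. Of the regions found under IFN-γ and not DMSO, 15 of 16 lay at no promoter (96.6% of all such regions), and of those under curcuphenol and not DMSO, 10 of 11 did (97.1%). These shares were near those over all merged regions. In both classes the 1 exception overlapped the promoter of Fbxo17, near Nfkbib.

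Nfkbiz held 8 of these 16 regions and Relb 3, Nfkbib and Tnfaip3 had 2 each and Nfkbie had 1. The 8 near Nfkbiz were between 438 and 740 bp long, and 6 of them lay downstream of the gene, between 33185 and 59875 bp from the upstream start. In the flanks of Nfkbiz, 8024 bp were called under DMSO, 1897 bp under curcuphenol and 12637 bp under IFN-γ, ratios of 0.236 and 1.58. The DMSO and IFN-γ values include the part of the 3′ stretch that lies beyond the gene. Tnfaip3 went the other way under curcuphenol: its flanks had 2501 bp under DMSO, 4988 bp under curcuphenol and 3947 bp under IFN-γ. Curcuphenol alone gave regions of 2007 bp and 1235 bp, 18155 to 20161 and 26799 to 28033 bp downstream of the Tnfaip3 start, where no promoter lies. Fewer covered bp in the gene and more in its flank thus stood side by side at Tnfaip3 under curcuphenol. The flanks of Nfkbib had 11561, 16577 and 15994 bp under DMSO, curcuphenol and IFN-γ. Its region 37587 to 40617 bp downstream had 456, 3031 and 1771 bp.

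**Figure D4:**
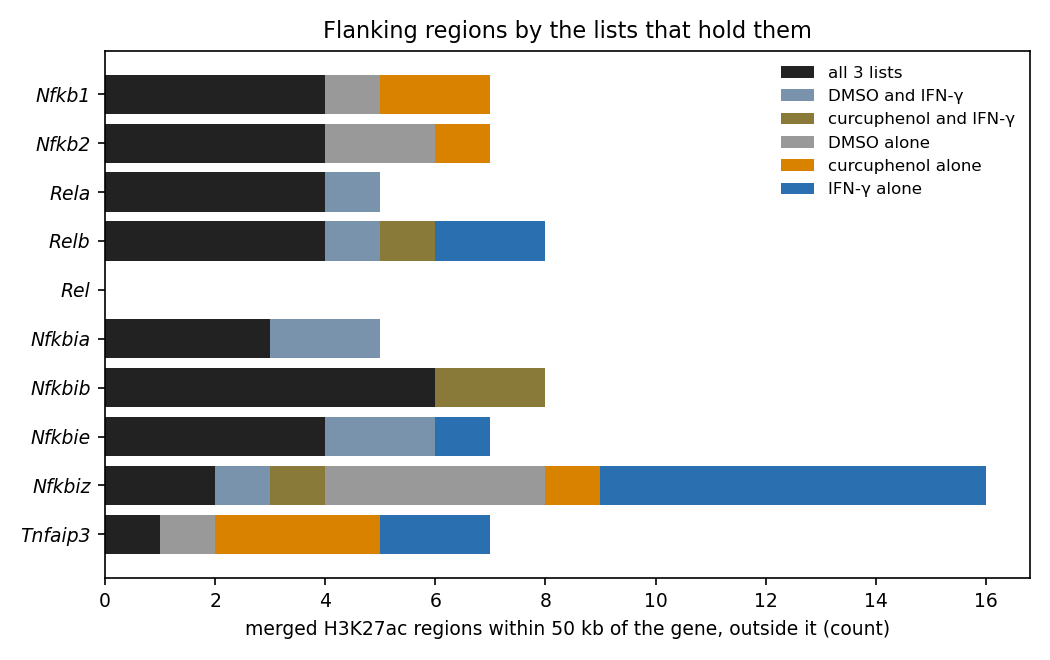
Number of merged H3K27ac regions in the 50 kb flanks of each member, stacked by the lists that hold them. Nfkbiz has 16 regions, 2 of them in all 3 lists and 8 under IFN-γ and not DMSO, Tnfaip3 has 3 of curcuphenol alone, and Rel has none.

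Regions called under every treatment also differed in length. Of the 32 flanking regions in all 3 lists, 28 had more called bp under IFN-γ than under DMSO, against 62.2% of 27636 such regions, with a median log2 ratio of 0.28 (0.12 over all of them). After scaling to the list totals the count was 21 of 32, against 41.6%. Of the 17 regions in the genes, 12 had more bp under IFN-γ (10 after scaling). Under curcuphenol, 13 of the 17 regions in the genes had fewer bp than under DMSO, against 56.6%, with a median log2 ratio of -0.28 (-0.09 over all). In the flanks 18 of 32 had fewer.

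In the central 300 bp of the merged regions, a κB match was found in 9 of 110 member regions (8.18%) and in 3.66% of all. Of the 9, 3 lay in the territory of Rela, 2 each in that of Nfkbiz and of Tnfaip3, and 1 each in that of Nfkb2 and of Nfkbia. In all 3 lists were 5 of them. Of the 3 around Rela, 2 lay at the promoters of other genes, Rnaseh2c and Sipa1. The other was centred outside the gene, at its 3′ end, and the region at the Rela promoter held no match. Of 24 member regions under IFN-γ and not DMSO, none held a κB match (3.96% of all such regions), 1 held TTCNNNGAA (9.06%) and 2 held GAAANNGAA (12%). Of 14 member regions under curcuphenol and not DMSO, 1 held a κB match (2.7% of all such regions), 3 held TTCNNNGAA (9.47%) and 4 held GAAANNGAA (9.44%). Of 13 under DMSO and not IFN-γ, 1 held a κB match (1.84%), 3 held TTCNNNGAA (11.9%) and 2 held GAAANNGAA (13.7%). Regions under DMSO and not curcuphenol held a κB match in 3 of 27 (3.18%). TGANTCA was in 16 of 110 member regions (14.5%) and in 18.6% of all. These are counts of letters in a 300 bp window of regions whose true centres of acetylation are not known.

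The wider pathway was read from lists of 78 genes, chosen with earlier results of these data known. Under IFN-γ, 18 had at least 1.5 times more covered bp than under DMSO and 4 had fewer by that fold, of 64 with a region in either list. Under curcuphenol the counts were 12 more and 21 fewer of 66, and for IFN-γ against curcuphenol 28 more and 10 fewer of 67. The shares over all genes were 21.2% and 9.31% under IFN-γ, 22.1% and 21.2% under curcuphenol, and 26.3% more and 17.2% fewer for IFN-γ against curcuphenol. After scaling to list totals, the pathway counts were 12 more and 5 fewer under IFN-γ, and 12 and 21 under curcuphenol. For IFN-γ against curcuphenol they were 22 and 10. The shares over all genes were not taken after scaling.

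Of 16 other negative regulators of the pathway, all had a region. IFN-γ passed 1.5 times more bp at 3 and fewer at 2, and curcuphenol passed more at 3 and fewer at 5. Tnip1, an A20-binding inhibitor, had 4771 bp under DMSO, 11308 bp under curcuphenol and 12208 bp under IFN-γ, more under both treatments. N4bp1, a ubiquitin-binding inhibitor of the pathway, had 8502, 12445 and 17705 bp in the same order. Otulin, which removes linear ubiquitin chains, had 2027, 9817 and 2113 bp and was long under curcuphenol alone. Rnf11, a partner of the A20 complex, had 13834, 13809 and 7503 bp, and Peli1, an E3 ligase, had 2548, 1157 and 1201 bp.

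Of 11 receptor genes, 10 had a region. IFN-γ passed 1.5 times more bp at 1 and fewer at 2, and curcuphenol passed 1.5 times fewer bp at 4 and more at 0. Tnfrsf1a, the main TNF receptor, had 5499 bp under DMSO, 5974 bp under curcuphenol and 8360 bp under IFN-γ. Il1rap, the accessory chain of the IL-1 receptor, had 10182, 6598 and 5990 bp, and Tnfrsf11a, the RANK receptor, had 2346, 1449 and 1308 bp. Tlr3, a sensor of double-stranded RNA, had 2367, 1458 and 2547 bp. Cd40 had no region in any list.

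All 19 genes of adaptors and kinases had a region, and IFN-γ passed 1.5 times more bp at 7 and fewer at 0, with a median log2 ratio to DMSO of 0.15. Birc3, an inhibitor of apoptosis that ubiquitinates signalling proteins, had 2815 bp under DMSO, 1632 bp under curcuphenol and 6720 bp under IFN-γ. Irak4, the kinase of the Myddosome, had 1288, 1026 and 3277 bp. Map3k14, the NIK kinase of the non-canonical pathway, had 7269, 7578 and 12265 bp, and Traf1 had 2605, 2649 and 4817 bp. These 4 genes were named for the largest differences in bp between IFN-γ and DMSO, so IFN-γ above DMSO follows from the choice. At each of them IFN-γ stood above curcuphenol, which a choice by high IFN-γ values favours too. It did so at 15 of the 19 genes of this list. Under curcuphenol, 3 genes passed more and 5 fewer. Ikbkb, an IκB kinase, had 4757, 7690 and 6415 bp, and Tab2 had 4027, 1925 and 3531 bp.

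Of 7 ligand genes, 5, among them Tnf, Il1a and Il1b, had no region in any list. Tnfsf12, the TWEAK gene, had 1139 bp under DMSO, 308 bp under curcuphenol and 1334 bp under IFN-γ, and Tnfsf11 had 663 bp under curcuphenol and none otherwise. Of 25 target genes, 5 had no region in any list. IFN-γ passed 1.5 times more bp at 7 of 18 with a region in either list and fewer at 0, and curcuphenol passed more at 5 and fewer at 6 of 19. Cflar, an inhibitor of caspase activation, had 22526, 23062 and 36325 bp under DMSO, curcuphenol and IFN-γ, and Sod2, the mitochondrial superoxide dismutase, had 3077, 1273 and 5324 bp. Ccl5, a T cell chemokine, had 243, 4386 and 2618 bp. Nos2 had no region under DMSO, 1183 bp under curcuphenol and 1106 bp under IFN-γ. Vcam1, an adhesion molecule, had 12176, 7807 and 13150 bp. Ccl5 and Nos2 were the named targets past the fold with more bp under both treatments, and Sod2 and Vcam1 had fewest under curcuphenol.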

How the data were processed

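H3K27ac ChIPseq of A9 cells was made from 3 treatments, with 1 H3K27ac and 1 input library each. The authors used BWA mem to align the paired reads to mm10 (0.7.17 in the submitters' processing notes, an earlier version in the methods) and called regions with MACS2 (2.1.2, BAMPE format, FDR cutoff 0.01) against the input of the same treatment. The deposited lists hold start and end positions in bp, without a score or read count. Duplicate and mapping quality filters are not given in the sources used here. MACS2 called narrow regions, so that a broad acetylated domain can be split.

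Positions were compared with curated transcripts of the RefSeq annotation of GRCm38.p6, in Python 3.11.15 with numpy 2.4.6 and scipy 1.17.1 (figures in matplotlib 3.10.9). Covered bp were counted over the gene body and 1000 bp upstream, a gene counted as past the fold at 1.5 times more or fewer bp (a gene with a region in only 1 of the lists included), and merged regions were counted as flanking out to 50 kb. The counting was tested on simulated data: 0 of 3000 intervals per list differed from a direct count. The depth of the libraries is not known, and exact Clopper-Pearson 95% intervals of shares cover counting error only. The members and gene lists were chosen with earlier results of these data known. All members are named, and of each pathway list up to 4 genes past the fold with the largest difference in bp between IFN-γ and DMSO and up to 2 between curcuphenol and DMSO. Genes named as having no region (Cd40, Tnf, Il1a, Il1b, Epcam, Nkx2-1 and Sftpc), the markers Cdh1 and Krt8, and the neighbours of members were chosen after their values were seen. Alternatives varied the bp upstream, the fold, the shortest region, the gaps joined, the scaling, the promoter, the flank and the overlap. Reads and read levels were not analysed here.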

Additional observations from a re-analysis of the deposited data

How the results depend on the processing

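The alternatives were set with earlier results of these data known. At the member genes, the count with fewer bp with IFN-γ than with curcuphenol was 0 and became 1 without the upstream bp, with regions of at least 500 bp or with lists cut to equal totals, and 2 after scaling to list totals. Scaling also changed IFN-γ against DMSO from 8 more and 2 fewer to 5 and 5. Fewer bp with IFN-γ than with DMSO were found at 4 members with equal totals and at 1 with gaps of up to 500 bp joined. Past the fold of 1.5 with IFN-γ against DMSO, 0 became 1 (Rel, fewer bp) with regions of at least 500 bp and with equal totals, where Rel stood at 0.593 and 0.497 times DMSO. With gaps of up to 500 bp joined, Rel stood at 0.941 times DMSO. With a fold of 2, IFN-γ against curcuphenol kept 2 of 4 members (Nfkbie and Tnfaip3), and the pathway counts became 11 more and 1 fewer with IFN-γ against DMSO, 12 fewer with curcuphenol against DMSO, and 14 more and 4 fewer with IFN-γ against curcuphenol. With the centre of a region in the promoter in place of any overlap, 2 of 10 members in place of 10 had a promoter region in all 3 lists. The 4 flank counts were IFN-γ and not DMSO, DMSO and not IFN-γ, curcuphenol and not DMSO, and DMSO and not curcuphenol. With flanks of 20 kb they were 5, 3, 5 and 5 of 24 merged regions, in place of 16, 8, 11 and 15 of 70. With a reciprocal overlap of 50%, regions of single lists were counted in place of merged regions, and the counts were 32, 26, 22 and 29. With flanks of 100 kb there were 123 merged regions. Of these, IFN-γ and not DMSO had 25, curcuphenol and not DMSO 17, and DMSO and not curcuphenol 24. With regions of at least 500 bp, DMSO and not IFN-γ had 2 of 54 and DMSO and not curcuphenol 5. The other 127 values of this kind stayed within 1.5 times the reported count. Of the recomputed ratios of single members, 259 stayed on the same side of the fold, 11 crossed it and 0 turned past it in the other direction. No paired analysis was possible because each treatment has 1 library. A stricter calling threshold could not be tried, since the lists carry no score. Without read depth, a region missing from a list cannot be told apart from one that fell below detection.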

Other observations

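Other genes share the flanks of the members, and their promoter regions were called under every treatment in most cases. Of the 20 regions at such promoters, 14 had fewer called bp under curcuphenol than under DMSO and 6 had more, and 16 had more under IFN-γ and 4 fewer. Over the 27636 merged regions in all 3 lists, 56.6% had fewer under curcuphenol and 62.2% had more under IFN-γ. The same share over all promoter regions was not taken. These counts were not scaled to list totals, and the IFN-γ total was 1.16 times that of DMSO. Beside Nfkbie, the region at Hsp90ab1, a cytosolic chaperone, had 4168 bp under DMSO, 2894 bp under curcuphenol and 5343 bp under IFN-γ, and that at Slc35b2, a transporter of the Golgi, had 1894, 792 and 2075 bp. The order of the lists at both was that of Nfkbie itself. At Slc29a1, a nucleoside transporter further downstream, the lengths were 2348, 2126 and 2522 bp. Upstream of Nfkbie, the region at Aars2 had another order, with 679 bp under DMSO, 340 bp under IFN-γ and no call under curcuphenol. Beside Rela, the region at Map3k11 and Pcnx3 had 4926, 3265 and 5092 bp, that at Sipa1 had 1669, 783 and 1577 bp, and that at the acetyltransferase gene Kat5 had 2103, 1863 and 2050 bp. The region at Rnaseh2c, upstream of Rela, was longest under curcuphenol, at 1041, 1440 and 1031 bp. Beside Relb, a region at Zfp296 had 1341 bp under DMSO and 1897 bp under IFN-γ and no call under curcuphenol, and that at Clptm1 had 1919, 2179 and 2095 bp. Beside Nfkbib, the region at Hnrnpl had 5797, 5865 and 7056 bp. These genes were chosen after their values were seen, and each value comes from 1 library.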
